A study of Mus musculus with 13 samples.

Results

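The globin and erythroid genes followed here are 7 genes of red blood cells, namely the alpha globin genes Hba-a1 and Hba-a2, the beta globin genes Hbb-bs and Hbb-bt, the heme synthesis gene Alas2, the membrane gene Slc4a1 and the red cell enzyme gene Bpgm. They were taken by symbol from a table of 32544 gene symbols, and all 7 were found. The table holds 13 Quant-seq libraries of lung from wild-type male C57BL/6J mice, bought at 7 weeks of age and kept for 5 days in 21% oxygen (normoxia, 7 libraries) or 80% oxygen (hyperoxia, 6 libraries). In Quant-seq only the 3′ ends of polyadenylated transcripts are sequenced, and long transcripts therefore do not collect more reads than short ones. The lungs were perfused with cold buffer before they were frozen, and the sources used here do not say how completely this cleared the blood of each lung. The labels do not tie each library to 1 animal, so that p-values measure the spread between these samples.

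Mature red cells of mammals have no nucleus, and the reticulocytes that give rise to them still carry globin RNA, so that globin transcripts in a tissue mostly report blood left in its vessels. Hemoglobin is assembled from alpha and beta globin chains, each holding a heme, and Alas2 makes the enzyme of the first step of heme synthesis in erythroid cells. Slc4a1 encodes band 3, the anion exchanger of the red cell membrane, and Bpgm encodes the enzyme that makes 2,3-bisphosphoglycerate, which lowers the oxygen affinity of hemoglobin. In bulk lung RNA, fewer cells of a type and less RNA per cell cannot be told apart.

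The alpha globin genes lie on chromosome 11 (GRCm38, GENCODE annotation), Hba-a1 at chr11:32283511-32284465 and Hba-a2 at chr11:32296489-32297298, both on the plus strand. The adult beta globin genes lie on the minus strand of chromosome 7, Hbb-bt at chr7:103812524-103813996 and Hbb-bs at chr7:103826534-103828096. Alas2 is at chrX:150547375-150570638, Slc4a1 at chr11:102348824-102366203 and Bpgm at chr6:34476207-34505613. Hba-a2, Hbb-bs, Hbb-bt and Alas2 had lower means in hyperoxia, as Bpgm did, although not alike in every library. The promoters of these globin rows, which carried nearly all globin counts, and of Alas2 are shown. Each is the 250 bases before the RefSeq start site (GRCm38.p6), on the strand of the gene, from chr11:32296242-32296491 for Hba-a2, chr7:103827929-103828178 for Hbb-bs, chr7:103813924-103814173 for Hbb-bt and chrX:150547167-150547416 for Alas2. Capitals mark the CCAAT box, the CACCC box, the TATA-type motif ATATAA and the GATA-type motifs AGATAA or TGATAA, on either strand.
Hba-a2 promoter: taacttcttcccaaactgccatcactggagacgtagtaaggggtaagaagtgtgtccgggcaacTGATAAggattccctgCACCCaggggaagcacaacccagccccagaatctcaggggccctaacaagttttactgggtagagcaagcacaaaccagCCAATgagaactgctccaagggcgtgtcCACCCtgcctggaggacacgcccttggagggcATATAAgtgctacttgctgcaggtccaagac
Hbb-bs promoter: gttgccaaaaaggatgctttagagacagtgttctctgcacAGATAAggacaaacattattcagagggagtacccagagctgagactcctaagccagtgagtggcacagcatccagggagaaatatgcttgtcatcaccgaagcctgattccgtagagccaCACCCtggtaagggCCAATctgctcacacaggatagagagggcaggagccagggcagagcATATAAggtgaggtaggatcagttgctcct
Hbb-bt promoter: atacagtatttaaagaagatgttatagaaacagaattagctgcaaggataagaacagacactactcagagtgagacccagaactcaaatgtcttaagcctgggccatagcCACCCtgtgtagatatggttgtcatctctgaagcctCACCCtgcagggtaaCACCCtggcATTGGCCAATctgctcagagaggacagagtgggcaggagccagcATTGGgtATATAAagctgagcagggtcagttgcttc
Alas2 promoter: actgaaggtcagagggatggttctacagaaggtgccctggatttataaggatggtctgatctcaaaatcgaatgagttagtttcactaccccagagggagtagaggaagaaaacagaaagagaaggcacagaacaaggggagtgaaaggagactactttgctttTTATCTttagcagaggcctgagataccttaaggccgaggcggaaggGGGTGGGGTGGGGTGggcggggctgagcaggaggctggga

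Promoter windows were found for 6 of the 7 genes, and all 4 globin windows held the CCAAT box, the CACCC box and the ATATAA motif together, as did 1.36% of 32851 mouse promoter windows of the same length. Taken singly, CCAAT stood in 33.8% of all windows, CACCC in 52.0%, ATATAA in 9.1%, AGATAA in 9.99% and TGATAA in 7.94%. The Alas2 window held 3 adjacent copies of CACCC and 1 of AGATAA, all on the reverse strand, and the Bpgm window held 3 copies of CCAAT and none of the other letters searched. In Hbb-bt a forward and a reverse CCAAT stood side by side. The windows of Hba-a1 and Hba-a2 were identical over their 247 shared bases, whereas those of Hbb-bs and Hbb-bt matched at 127 of 249 bases. Such letter matches describe the sequences only.

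The paired genes are also alike in their transcripts, which limits how far their counts can be told apart. The transcripts of Hba-a1 and Hba-a2 matched at 537 of 538 aligned bases, and those of Hbb-bs and Hbb-bt at 553 of 580. Hba-a1 received 12 counts over all 13 libraries and was at 0 in 10 of them, whereas Hba-a2 received 17022. The split between Hba-a1 and Hba-a2 is therefore uncertain, and sums of each pair are given beside the single rows. The beta pair is less alike, with 42 bases of Hbb-bs and 45 of Hbb-bt unaligned at the 3′ end. How well the counts of the beta genes separate was not tested. Slc4a1 received 14 counts in all and was at 0 in 7 libraries. Neither Hba-a1 nor Slc4a1 passed the filter on low counts, so that 5 of the 7 genes entered the test.

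Total counts were between 1607111 and 3387736 in normoxic libraries and between 2029006 and 4540288 in hyperoxic libraries. The tissue label was checked with the surfactant gene Sftpc, which stood at 9585 ± 2835 CPM (counts scaled by library size) in normoxia and 1457 ± 1005 CPM in hyperoxia (SD, n = 7 and 6). Cdkn1a, a target of p53, did not overlap between the groups, with 31.7 to 63.9 CPM in normoxia and 1083 to 1719 CPM in hyperoxia. Hyperoxia 1 stood apart, with a mean correlation of 0.779 with the other libraries against 0.886 to 0.919 for the other 12. In the same library, 196 genes with transcripts no longer than that of Hbb-bt deviated from their median over all libraries by a median of -1.93 log2 units, against -0.53 in hyperoxia 3, -0.28 in normoxia 6 and -0.15 to 0.25 in the other 10 libraries.

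Between hyperoxia and normoxia, Hbb-bt and Bpgm fell, whereas Hba-a2, Hbb-bs and Alas2 had lower means in hyperoxia that did not pass the test over all 13 libraries. These 2 of 5 tested genes compare with 10.8% of all 12496 genes called lower (edgeR quasi-likelihood test, adjusted p under 0.05 after Benjamini-Hochberg adjustment over all genes), and none of the 5 was higher. Hyperoxia 2 held as much globin RNA as normoxic lung, and without it 4 of 5 passed as lower, against 9.68% of 12711 genes. The median log2 fold change of the 5 genes was -1.14, and -2.21 without hyperoxia 2, while the median of all genes tested was -0.03 and -0.02. Fold changes are hyperoxia relative to normoxia throughout, and levels are CPM after scaling of the libraries by edgeR's TMM method.

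Hba-a2, which carried the alpha globin signal, ranged in normoxia from 16.6 CPM over a median of 588 CPM to 1076 CPM. In hyperoxia it ranged from 56.6 CPM over a median of 128 CPM to 1006 CPM. The groups overlapped at both ends, because normoxia 6 was the lowest of all 13 libraries and hyperoxia 2 the second highest library. The means were 637 ± 348 CPM and 307 ± 367 CPM (SD, n = 7 and 6), with a log2 fold change of -1.05 (SE 0.72, adjusted p = 0.324, edgeR). Without hyperoxia 2 the hyperoxic mean was 168 ± 149 CPM (n = 5) and the log2 fold change was -1.87 (SE 0.68, adjusted p = 0.0629, edgeR), which did not pass either. Hba-a2 passed only when hyperoxia 1 was left out as well, with a log2 fold change of -2.61 (adjusted p = 0.00834, edgeR). In that fit all 5 tested genes were called lower, against 12.6% of all genes. The 2 libraries left out had the highest Hba-a2 levels in hyperoxia, 1006 and 428 CPM, while normoxia 6 was kept. Without hyperoxia 1 and normoxia 6 instead, Hba-a2 had a log2 fold change of -1.39 (adjusted p = 0.0876, edgeR).

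Hbb-bs, the more abundant beta globin row, ranged in normoxia from 149 CPM over a median of 1010 CPM to 2096 CPM. In hyperoxia it ranged from 38.4 CPM over a median of 155 CPM to 1712 CPM. Of the hyperoxic libraries, 3 lay below every normoxic library, 2 lay between normoxia 6 and the rest, and hyperoxia 2 lay among the highest normoxic libraries. The means of 1110 ± 606 CPM and 401 ± 646 CPM (SD, n = 7 and 6) gave a log2 fold change of -1.47 (SE 0.74, adjusted p = 0.170, edgeR). Without hyperoxia 2 Hbb-bs fell, with a hyperoxic mean of 139 ± 80.4 CPM (n = 5) and a log2 fold change of -2.98 (SE 0.54, adjusted p = 0.00128, edgeR).

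Hbb-bt, the other adult beta globin row, fell in hyperoxia with all libraries kept. It ranged in normoxia from 25.8 CPM over a median of 131 CPM to 301 CPM, and in hyperoxia from 4.84 CPM over a median of 12.5 CPM to 114 CPM. All hyperoxic libraries except hyperoxia 2 lay below every normoxic library, normoxia 6 included. The means were 145 ± 86.6 CPM and 27.8 ± 42.4 CPM (SD, n = 7 and 6), with a log2 fold change of -2.39 (SE 0.68, adjusted p = 0.0189, edgeR). Without hyperoxia 2 the log2 fold change was -3.72 (SE 0.50, adjusted p = 1.27e-04, edgeR), with a hyperoxic mean of 10.5 ± 4.72 CPM (n = 5). When the rows of each globin pair were summed before the fit, the call was lost, with a log2 fold change of -1.55 for beta globin (adjusted p = 0.144, edgeR). Bpgm was then the 1 of 4 rows called lower, against 10.8% of all genes.

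**Figure D1:**
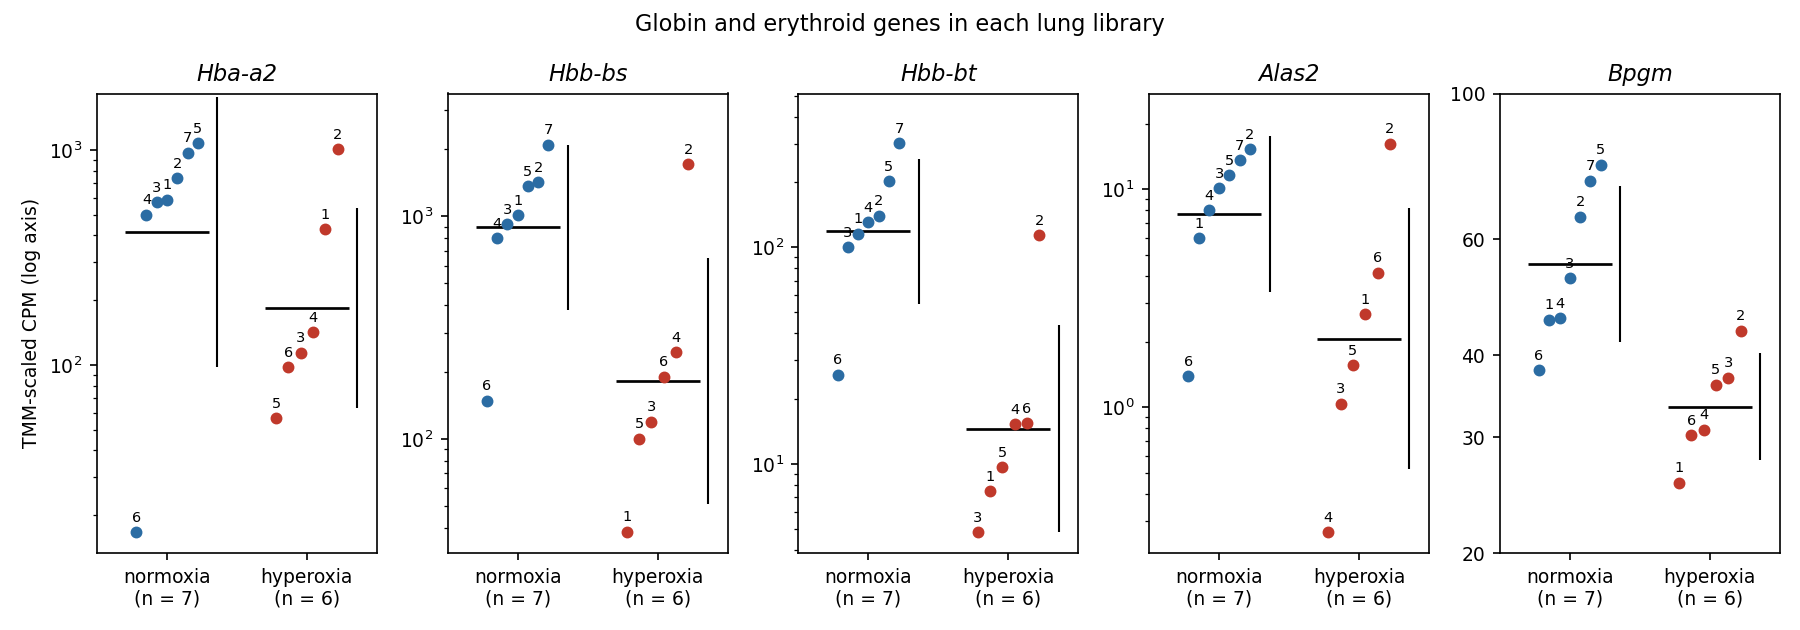
TMM-scaled CPM on log axes for the 5 tested genes in each of the 7 normoxic (blue) and 6 hyperoxic (red) libraries, with replicate numbers beside the points, the geometric mean as a horizontal line and 1 geometric SD on either side as a vertical line. In Hba-a2, Hbb-bs and Hbb-bt, hyperoxia 2 lies at the level of normoxic libraries, and normoxia 6 is the lowest normoxic library in all 5 genes.

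Summed over the 4 rows, globin RNA was 191 CPM in normoxia 6 and between 1429 and 3368 CPM in the other 6 normoxic libraries. It was 2831 CPM in hyperoxia 2 and between 167 and 474 CPM in the other 5 hyperoxic libraries. One library of each group thus lay at the level of the other group. The group means were 1892 ± 1012 CPM and 736 ± 1032 CPM (SD, n = 7 and 6), and without hyperoxia 2 the hyperoxic mean was 317 ± 123 CPM (n = 5).

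The same split was seen in Alas2, whose enzyme supplies heme to hemoglobin. It ranged in normoxia from 1.39 CPM over a median of 10.1 CPM to 15.3 CPM, and in hyperoxia from 0.268 CPM over a median of 2.11 CPM to 16.2 CPM. The highest library of all was hyperoxia 2, and normoxia 6 lay among the lower hyperoxic libraries. These levels rest on few reads, with 1 to 46 counts per library. The log2 fold change was -1.14 (SE 0.66, adjusted p = 0.239, edgeR) over all libraries and -2.21 (SE 0.58, adjusted p = 0.0133, edgeR) without hyperoxia 2, where Alas2 fell from 9.42 ± 4.76 CPM to 1.93 ± 1.51 CPM (SD, n = 7 and 5). Alas2 overlaps the antisense gene Apex2, which had 35.3 ± 22.8 CPM in normoxia and 23.4 ± 14.5 CPM in hyperoxia and a log2 fold change of -0.62 (adjusted p = 0.309, edgeR), and whether counting used strand is not given in the sources used here.

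Bpgm, which tissues other than blood also express at low levels, fell, with less spread between libraries than the globins. It ranged in normoxia from 38.0 CPM over a median of 52.4 CPM to 78.0 CPM, and in hyperoxia from 25.6 CPM over a median of 33.4 CPM to 43.6 CPM. Again hyperoxia 2 was the highest hyperoxic and normoxia 6 the lowest normoxic library, and the other 5 hyperoxic libraries lay below every normoxic one. The means of 56.8 ± 15.5 CPM and 33.9 ± 6.33 CPM (SD, n = 7 and 6) gave a log2 fold change of -0.74 (SE 0.19, adjusted p = 0.0112, edgeR), which was -0.79 (SE 0.20, adjusted p = 0.0107, edgeR) without hyperoxia 2.

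Slc4a1 and Hba-a1 were below the filter, and in a fit without it neither passed, with log2 fold changes of -1.56 (SE 0.96, adjusted p = 0.315, edgeR) for Slc4a1 and -1.62 (SE 1.28, adjusted p = 0.441) for Hba-a1. Slc4a1 had at most 4 counts in any library, at or near the floor of 3 counts per library used here, and Hba-a1 had 7 counts in normoxia 5, 2 in normoxia 7, 3 in hyperoxia 6 and none elsewhere. In hyperoxia 2, Slc4a1 had 1 count and Hba-a1 had 0, although this library held 2677 counts of Hba-a2.

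**Figure D2:**
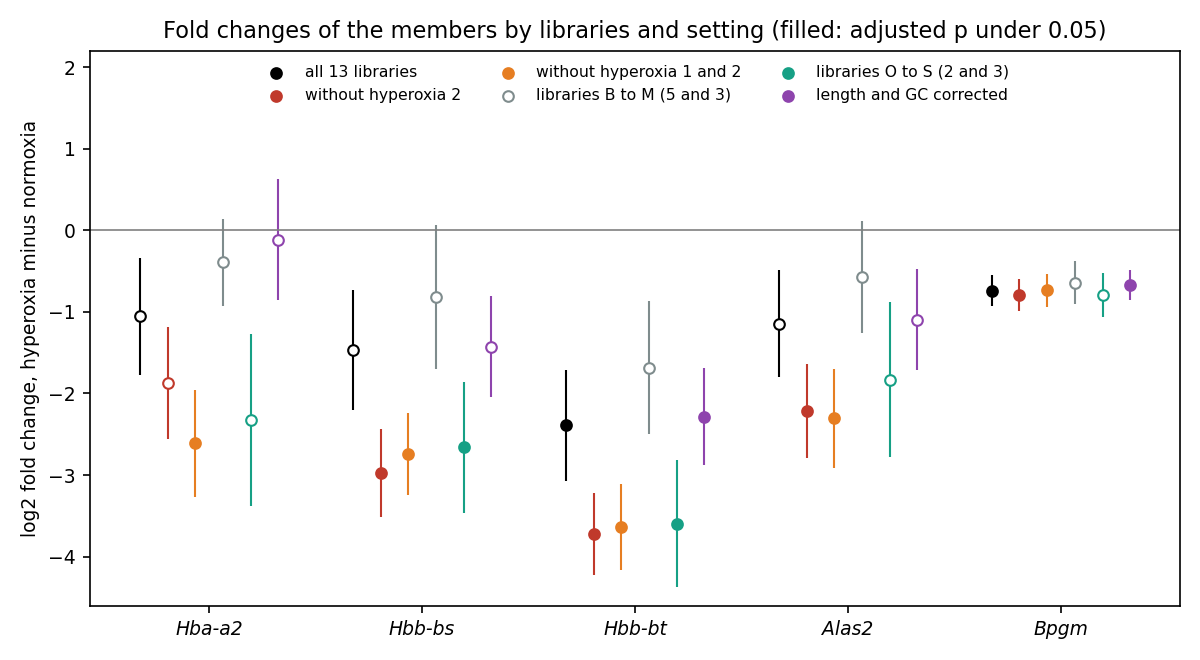
Fitted log2 fold changes (hyperoxia relative to normoxia, vertical axis) with their SE for the 5 tested genes, over all 13 libraries, without hyperoxia 2, without hyperoxia 1 and 2, within the libraries named B to M (5 normoxic, 3 hyperoxic), within those named O to S (2 normoxic, 3 hyperoxic) and after correcting for transcript length and GC content, with filled points for an adjusted p under 0.05. All values lie below 0, with Bpgm between -0.80 and -0.64 and Hba-a2 near 0 after the length and GC correction. With any 1 library left out, drawn here for hyperoxia 2 only, Bpgm ran from -0.81 to -0.63.

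The library names run from B to M and from O to S, and both hyperoxia 2 and hyperoxia 1 carry names of the first set. Within B to M none of the 5 genes passed (edgeR), where 3.47% of all genes were called lower, with log2 fold changes of -1.68 for Hbb-bt (adjusted p = 0.219) and -0.64 for Bpgm (adjusted p = 0.157), and the median of the 5 genes was -0.64. Within O to S, which holds normoxia 6 and where 10.3% of all genes were called lower, 2 of the 5 genes passed. The normoxic libraries of this set are normoxia 6 and 7 alone, with 149 and 2096 CPM of Hbb-bs. Hyperoxia 4 to 6 had 100 to 245 CPM, so that the call of Hbb-bs rests on normoxia 7. Hbb-bt was at 25.8 and 301 CPM in normoxia 6 and 7, against 9.64 to 15.4 CPM. Hbb-bs fell by 2.66 on the log2 scale (adjusted p = 0.0461) and Hbb-bt fell by 3.59 (adjusted p = 0.0138), while Bpgm had a log2 fold change of -0.80 (adjusted p = 0.0633). After correcting for length and GC content of transcripts, a step that was chosen after the data were seen, Hba-a2 had a log2 fold change of -0.11 (adjusted p = 0.930), and Hbb-bt, with a log2 fold change of -2.28 (adjusted p = 0.0103), still passed.

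The proportions of the chains were compared next, since alpha and beta globin are translated into equal numbers of subunits while the share of counts also depends on how well each 3′ end is read. Alpha globin made up between 28.8% and 40.8% of globin counts in 6 normoxic libraries and between 32.3% and 47.8% in 5 hyperoxic libraries. The share was 8.7% in normoxia 6 (95% Wilson interval 6.82% to 11.0%) and 90.3% in hyperoxia 1 (88.2% to 92.1%), intervals that cover counting error only. Hyperoxia 2, with 35.5%, lay within both of these ranges. Over all libraries the log2 ratio of alpha to beta globin was 1.17 higher in hyperoxia (two-sided exact permutation test, p = 0.105, 0.289 adjusted over 6 ratios), and 0.16 higher without hyperoxia 1 and normoxia 6 (adjusted p = 0.545, exact).

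Hyperoxia 1 thus had the second highest alpha level among hyperoxic libraries, with 428 CPM of Hba-a2, beside the lowest Hbb-bs level of all libraries. Normoxia 6 had the lowest Hba-a2 level beside 149 CPM of Hbb-bs, within the range of hyperoxic lung. Hyperoxia 1 was also the library with low counts of genes with short transcripts, whereas normoxia 6 stood at -0.28 in that measure. Both libraries were low in Ftl1, the ferritin light chain gene, with 50.1 CPM in hyperoxia 1 and 48.2 CPM in normoxia 6 against a normoxic median of 734 CPM. Fth1, the ferritin heavy chain gene, was at 89.0 CPM in hyperoxia 1 and 1153 CPM in normoxia 6, the lowest normoxic value. Their part in the alpha and beta levels was not tested.

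**Figure D3:**
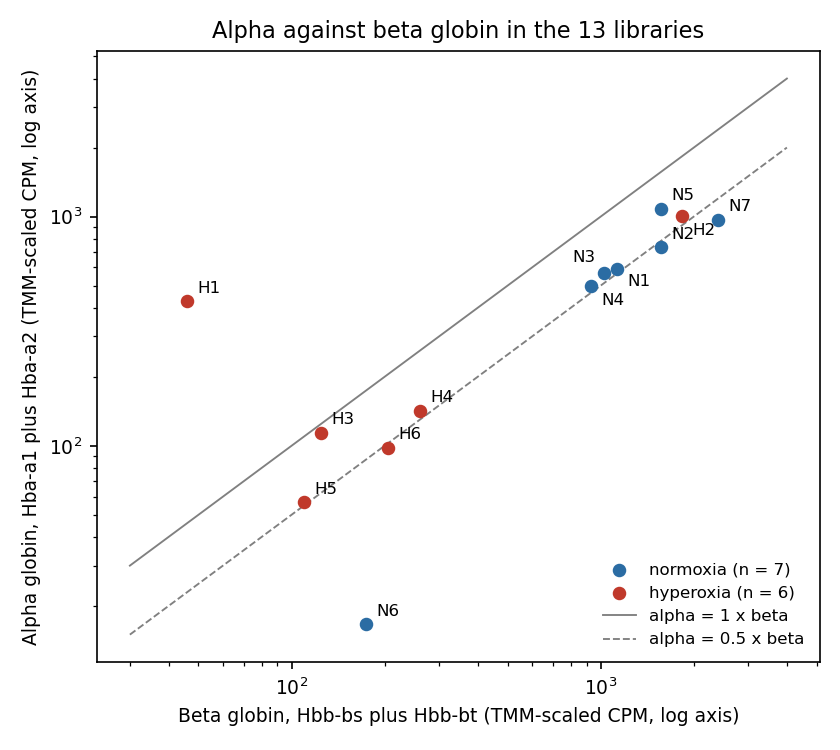
Alpha globin (Hba-a1 plus Hba-a2) against beta globin (Hbb-bs plus Hbb-bt) in TMM-scaled CPM on log axes, with 1 point per library (N, normoxia; H, hyperoxia) and lines where alpha equals beta or 0.5 times it. Most libraries lie near the lower line, H2 among the normoxic libraries, while H1 lies far above both lines and N6 far below them.

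Within the beta genes, Hbb-bt made up between 8.93% and 14.8% of beta globin counts in the 7 normoxic libraries. It made up between 3.89% and 8.76% in hyperoxia 2 to 6, hyperoxia 2 among them with 6.24% (95% Wilson interval 5.59% to 6.95%). Of the 6 hyperoxic libraries only hyperoxia 1 lay above the normoxic range, with 16.3% from 14 of 86 counts and an interval of 9.95% to 25.5%. The log2 ratio of Hbb-bt to Hbb-bs was lower in hyperoxia by a difference of -0.72 (exact permutation test, p = 0.0443, 0.266 adjusted over 6 ratios), which did not pass. Without hyperoxia 1 the difference was -0.98 (adjusted p = 0.00758, exact), and the 5 hyperoxic libraries then lay below all 7 normoxic ones. The margin was narrow, with log2 ratios of -3.36 in hyperoxia 5 and -3.35 in normoxia 2. Without hyperoxia 2 the difference was -0.66 (adjusted p = 0.167, exact).

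The ratios of the other genes to globin had no direction that passed the test. Alas2 per globin differed by 0.02 on the log2 scale (adjusted p = 0.983, exact permutation test), and its sign changed with the library left out. Bpgm per globin was 1.05 higher in hyperoxia (adjusted p = 0.289) and 1.52 higher without hyperoxia 2 (adjusted p = 0.167), and normoxia 6 had the highest ratio of the normoxic libraries. Slc4a1 per globin differed by 0.80 (adjusted p = 0.343) and Hba-a2 per Hba-a1 by -0.65 (adjusted p = 0.669), both set largely by the 0.5 counts added to each row.

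Since the 13 libraries fell into a high and a low globin level, relations between genes were computed within the groups. Among the 7 normoxic libraries, alpha and beta globin were correlated in log2 CPM with r = 0.971 (exact permutation p = 0.00258, adjusted over 4 relations p = 0.00516) and rho = 0.964 (exact p = 0.00278, adjusted p = 0.0111), and r was 0.995 without the 2 libraries farthest from the median. Bpgm was correlated with the 4 globins at r = 0.801 (exact p = 0.00198, adjusted p = 0.00516) and rho = 0.857 (exact p = 0.0238, adjusted p = 0.0476), with r = 0.941 without the 2 farthest. For Alas2, r was 0.955 (exact p = 0.00833, adjusted p = 0.0111) and rho 0.786 (exact p = 0.048, adjusted p = 0.064), and r was 0.655 without normoxia 6 and 7, so that the relation rests on those libraries. Slc4a1 gave r = 0.505 (exact p = 0.231) and rho = 0.593 (exact p = 0.179).

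Among the 6 hyperoxic libraries none of the 4 relations passed. For alpha and beta globin r was 0.509 (exact p = 0.31) and rho 0.371 (exact p = 0.497), and for Alas2 r was 0.75 (exact p = 0.104) and rho 0.486 (exact p = 0.356). Without the 2 libraries farthest from the median, r was 0.726 for alpha and beta globin (without hyperoxia 1 and 2), and without hyperoxia 2 and 5 it was -0.01 for Alas2, -0.91 for Bpgm and -0.27 for Slc4a1. With all 6 libraries Bpgm gave r = 0.414 (exact p = 0.443) and rho = -0.03 (exact p = 1.0), and Slc4a1 gave r = 0.546 (exact p = 0.3) and rho = 0.304 (exact p = 0.6).

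The genes whose log2 CPM followed the mean of the 4 globins most closely over 13 libraries were Npr2 (r = 0.901), Cbr2 (r = 0.863) and Tppp3 (r = 0.854), followed by Fcgrt, Ndufv3, Foxj2, Chad, Pdzk1ip1, Ifitm1 and Thrsp (r = 0.839 to 0.848). Without hyperoxia 2 the closest were Npw (r = 0.945), Bace2 (r = 0.934), Npr2 (r = 0.919) and Cox4i2 (r = 0.895), followed by Chad, Cbr2, Tppp3, St5, Ifitm1 and Pdzk1ip1 (r = 0.867 to 0.881). Of the 10 genes in each ranking, 6 were shared. All were measured in the same libraries as the globins, and the values describe likeness only. In hyperoxia 2 some stood with the globins at the normoxic level, as Ndufv3 did with 70.3 CPM against a normoxic mean of 64.8 CPM. Others did not, as Npw with 1.13 CPM against 9.80 CPM and Chad with 1.88 CPM against 6.61 CPM. The mean of the globins gave the 4 rows equal weight, Hba-a1 among them, which was at 0 in 10 libraries.

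The remaining globin genes were mostly undetected. Of 11 other globin symbols 6 were at 0 in every library, and only myoglobin and cytoglobin were tested. Cygb did not pass, with 57.3 ± 8.60 CPM in normoxia, 85.2 ± 74.8 CPM in hyperoxia (SD, n = 7 and 6) and 236 CPM in hyperoxia 1 alone (log2 fold change 0.56, adjusted p = 0.271, edgeR). Mb, the oxygen store of heart and skeletal muscle, fell from 6.36 ± 3.31 CPM to 0.958 ± 1.39 CPM (SD, n = 7 and 6), with a log2 fold change of -2.49 (adjusted p = 0.00797, edgeR). In hyperoxia 2 Mb was at 1.13 CPM, not at the level of normoxic lung. Of 5 markers of cardiac muscle, which surrounds pulmonary veins in mice, 3 were called lower, against 10.8% of all genes. Without hyperoxia 2 there were 2 called lower, against 9.68%. The summed level of these markers was 78.4 to 232 CPM in normoxia and 4.27 to 165 CPM in hyperoxia. The part of cardiac muscle in the fall of Mb was not tested.

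In the lists that follow, counts over all 13 libraries stand beside 11.8% of all genes called higher and 10.8% called lower, and counts without hyperoxia 1 beside 15.2% higher and 13.4% lower. Of 14 heme synthesis genes tested, Cpox, which encodes coproporphyrinogen oxidase, rose from 37.6 ± 7.11 CPM to 67.6 ± 23.2 CPM (SD, n = 7 and 6; adjusted p = 0.0167, edgeR), none fell over all libraries, and without hyperoxia 2 Alas2 alone fell. The median log2 fold change was -0.19. Of 17 genes of the red cell membrane and surface only 6 passed the filter, and Dmtn, which encodes the actin-bundling protein dematin, was the 1 gene called lower, near the 10.8% of all genes, from 12.6 ± 3.44 CPM to 6.49 ± 1.40 CPM (adjusted p = 0.0114, edgeR). Dmtn stood at 4.89 CPM in hyperoxia 2, the library with the most globin among hyperoxic ones. The median of this list was -0.37. Without hyperoxia 1, 2 heme synthesis genes were higher and 1 lower, and 2 membrane genes were lower.

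Red cell enzymes moved in both directions. Of 7 tested, Hk1, a hexokinase, rose by a log2 fold change of 1.25 (adjusted p = 4.29e-04, edgeR) and Blvrb, biliverdin reductase B, by 0.93 (adjusted p = 3.68e-04), while Bpgm and Cat, the catalase gene with a log2 fold change of -0.79 (adjusted p = 0.00458), fell, and the median was -0.26. Many of these genes are active in lung cells as well. Of 11 tested transcripts known to persist in reticulocytes, Gclm, a subunit of the enzyme that makes glutathione precursor, rose by a log2 fold change of 1.47 (adjusted p = 5.81e-05), and Bnip3l, which clears mitochondria from maturing red cells, and Fam46c fell, with log2 fold changes of -1.09 (adjusted p = 0.00883) and -1.04 (adjusted p = 0.00961). The median of the 11 was -0.22, and without hyperoxia 1, 2 genes of this list were higher and 3 lower.

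Gata1 and Klf1, the defining transcription factors of erythroblasts, were at 0 in all 7 normoxic libraries and reached at most 3 and 4 counts in any hyperoxic library, with 0 in hyperoxia 2. Epor, the erythropoietin receptor gene, had at most 5 counts. Of 7 erythroid regulators and receptors tested, Lmo2 fell with a log2 fold change of -1.80 (adjusted p = 2.40e-06, edgeR) and Bcl11a with one of -1.60 (adjusted p = 2.82e-04), and the median was -0.11, which was 0.03 without hyperoxia 1 and -0.24 without hyperoxia 2. Lmo2 is also active in endothelium and Bcl11a in B cells, and both were low in hyperoxia 2, at 12.8 and 12.4 CPM.

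**Figure D4:**
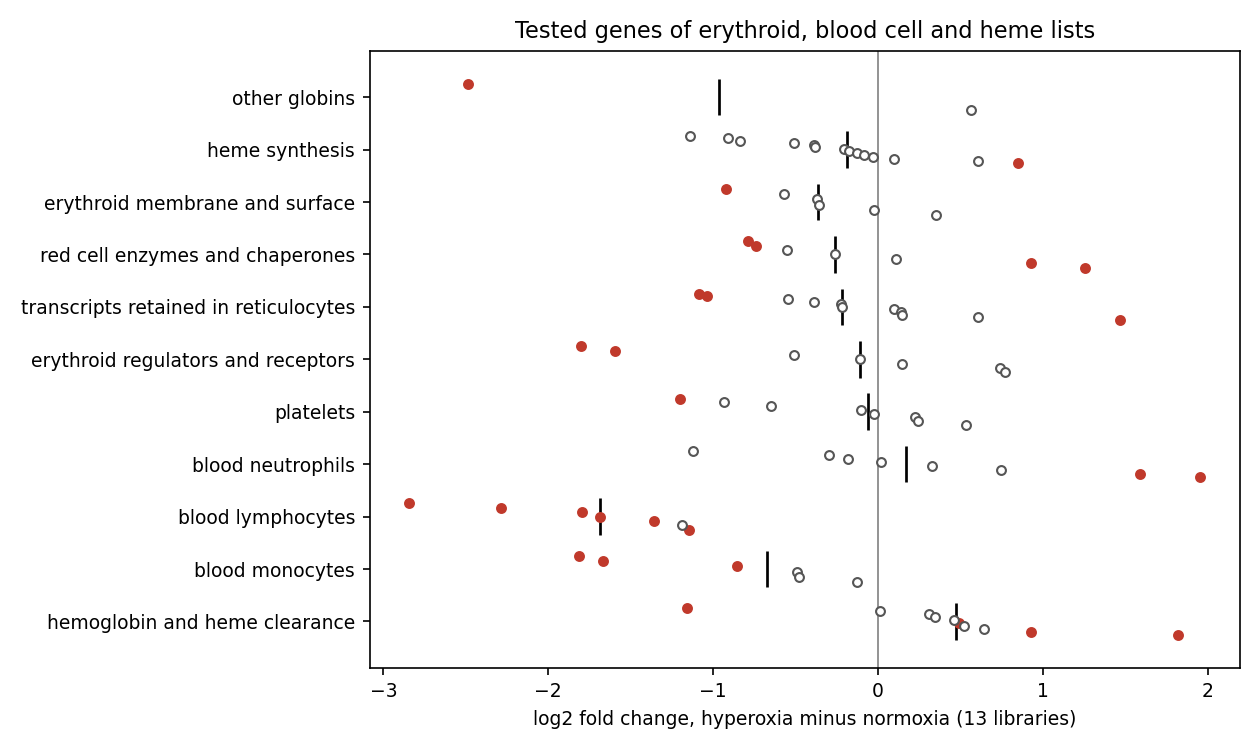
Fitted log2 fold changes over all 13 libraries (horizontal axis) of the tested genes in each list of erythroid, blood cell and heme genes, filled red for an adjusted p under 0.05, with the list's median as a black line. Lymphocyte genes lie lowest as a list with a median of -1.69, while the lists of membrane, enzyme, reticulocyte and regulator genes have medians between -0.37 and -0.11, and the 5 tested globin and erythroid genes have one of -1.14.

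Of 7 lymphocyte genes 6 fell, against 10.8% of all genes, with a median log2 fold change of -1.69. Among them were the B cell genes Cd79b (log2 fold change -2.28, adjusted p = 1.33e-04, edgeR), Cd79a (-1.80, adjusted p = 0.00103) and Ms4a1 (-1.36, adjusted p = 0.00156). Their summed level in hyperoxia 2, 55.6 CPM, was within the hyperoxic range of 38.7 to 93.8 CPM and below the normoxic range of 143 to 200 CPM. Of 6 monocyte genes 3 fell, Spn (log2 fold change -1.81, adjusted p = 6.98e-04, edgeR), Ly6c2 (-1.67, adjusted p = 0.0214) and Ccr2, the receptor for monocyte chemoattractants (-0.85, adjusted p = 0.00805), with a median of -0.67. Each of the genes named here also passed without hyperoxia 2.

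Of 8 neutrophil genes 2 were called higher, against 11.8% of all genes. Mmp8 and Lcn2, which encode granule proteins, rose by log2 fold changes of 1.95 (adjusted p = 9.76e-04, edgeR) and 1.59 (adjusted p = 0.0126), and the median was 0.17. The other 6 did not pass, with log2 fold changes of -0.18 for S100a8, -0.30 for S100a9, -1.12 for Mmp9 (adjusted p = 0.0606), 0.74 for Ltf, 0.32 for Retnlg and 0.02 for Cxcr2. The median was 0.10 without hyperoxia 2 and 0.39 without hyperoxia 1, and in the latter 1 neutrophil gene was called lower. Of 8 platelet genes 1 was called lower, near the 10.8% of all genes. Ppbp, which encodes a platelet chemokine, fell with a log2 fold change of -1.20 (adjusted p = 0.00840, edgeR), and the list's median of -0.06 was 0.04 without hyperoxia 1 and -0.15 without hyperoxia 2. The summed platelet level ran from 129 to 190 CPM in normoxia and from 129 to 186 CPM in hyperoxia, with the highest hyperoxic value in hyperoxia 2.

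Clearance of free hemoglobin and heme was followed with 10 tested genes. Cd163, the macrophage receptor for hemoglobin bound to haptoglobin, rose from 3.03 ± 1.17 CPM to 11.0 ± 1.94 CPM (SD, n = 7 and 6; adjusted p = 2.41e-04, edgeR), Blvrb rose as above, and Lrp1, a receptor for heme bound to hemopexin, rose by a log2 fold change of 0.49 (adjusted p = 0.0356). With library size alone as the scaling, Lrp1 did not pass (0.43, adjusted p = 0.0798). Hp, the haptoglobin gene, fell by 1.16 on the log2 scale (adjusted p = 7.20e-04). Hmox1, the inducible heme oxygenase gene, had at most 4 counts in any library and could not be compared. The median of the list was 0.48.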

How the data were processed

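RNA from 7 normoxic and 6 hyperoxic lung samples was sequenced with Quant-seq. Reads were pseudoaligned by the authors with kallisto in BioJupies (mm10 per the labels), and the authors deposited whole-number counts per gene symbol without normalization. They also deposited the same values as log10 of CPM plus 1, which recomputation from the counts gave within 8.9e-16, and 0 columns were left unmapped. limma 3.54.2 is listed in the submitters' processing notes.

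Counts were fitted in R 4.3.3 with edgeR 4.0.16 (TMM, filterByExpr, glmQLFit, glmQLFTest) on the whole table, with an adjusted p of 0.05 as the threshold, and DESeq2 1.42.0 and limma 3.58.1 were alternatives. Ratios had 0.5 counts added to each row or sum and were tested with exact permutation over samples (scipy 1.17.1), for which the smallest p of 7 against 6 is 0.000583. Log2 CPM used a prior count of 2 for correlations between libraries, for genes with short transcripts and for the genes compared with the globins. Relations between members, the mean of the globins and the checks for outlying CPM levels used log2 of CPM plus 0.5. A count of 3 was the floor. The counts carry no molecular identifiers here, so intervals and floors cover counting error only. On counts simulated for this comparison over 12530 genes, with 200 changed, 100% were recovered and 4.31% of calls were false. Every simulated gene had the same dispersion of 0.106, and no simulated library stood apart. The globins varied more between libraries, so that these rates do not carry over to them.

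The 7 genes and the gene lists were chosen with earlier results of these data known. Genes named from a list are up to 4 with the smallest adjusted p among those called and up to 2 whose call differs without hyperoxia 2. Some genes that these rules name are not reported here. The 10 genes most correlated with the mean of the globins are named with no p. Gata1, Klf1, Epor, Hmox1, S100a8, S100a9, Mmp9, Ltf, Retnlg, Cxcr2, Rtkn2, Ftl1, Fth1, Cygb, Apex2, Sftpc and Cdkn1a are named as checks, chosen after their values were seen. Alternatives left out libraries, changed scaling, filter, test, letter set and pseudocount, summed the rows of each globin pair, or used the replicate number as a block. Leaving out hyperoxia 1 with normoxia 6, the gene lists without hyperoxia 1, and the length and GC correction (lengths found for 95.1% of genes) were chosen after seeing the data.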

Additional observations from a re-analysis of the deposited data

Results flagged for a closer look

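Within each group, the gap between the most extreme library and its nearest neighbour was divided by the range of the group. By this measure 16 of 38 group checks over 19 measures stood out, where chance gives about 1 in 20, or 1.9 checks. The measures overlap, since the sums and ratios share rows. Normoxia 6 was far below the other normoxic libraries in Hba-a2 (gap 0.814 of the range), in Hbb-bs (0.635), in Alas2 (0.578), in summed alpha globin (0.814), in summed beta globin (0.638) and in all 4 globins (0.701). It was also lowest in the ratio of alpha to beta globin (0.73) and highest in Bpgm per globin (0.815). Hyperoxia 2 was far above the other hyperoxic libraries in Hbb-bt (0.643) and in all 4 globins (0.631).

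Hyperoxia 1 was highest of its group in the ratio of alpha to beta globin (0.78), and lowest in its mean correlation with all others (0.763) and in the level of genes with short transcripts (0.648). Hba-a1 was highest in normoxia 5 (0.654) and in hyperoxia 6 (1.0), with 7 and 3 counts, and normoxia 5 had the lowest total count of its group (0.612).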

How the results depend on the processing

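The tested genes had negative log2 fold changes in each alternative that gave them a value, and none was called higher. Alas2 had no value with at least 10 counts in every library, and the single globin rows had none when summed. The number called lower, 2 over all libraries, was 0 within libraries B to M (3.47% of all genes). It was 1 with the rows of each globin pair summed (10.8%) and 5 without hyperoxia 1 and 2 (12.6%). With 1 library left out it was between 2 and 4, where the 4 came without hyperoxia 2. The median of the members, -1.14, was -2.32 within libraries O to S, -2.61 without hyperoxia 1 and 2, and between -2.21 and -0.88 with 1 library left out. Hbb-bs also passed with limma-voom (log2 fold change -2.27, adjusted p = 0.0342) and with limma on the deposited log values (-2.36, adjusted p = 0.0311). The log2 ratio of Alas2 to the globins, 0.02, was -0.0954 with a pseudocount of 0.1, -0.049 with the replicate block, and between -0.26 and 0.51 with 1 library left out. That of Hbb-bt to Hbb-bs, -0.72, was -0.92 without hyperoxia 1 and normoxia 6 and between -0.98 and -0.53 with 1 library left out. Over all genes, 1473 were higher and 1346 lower, against 1183 and 1576 when only library size was used, 1097 and 1729 for the deposited log values in limma, 1854 and 1207 with the length and GC correction, and 679 and 441 within B to M. The median of all genes moved to -0.10 and -0.16 with the first 2 of these and to 0.07 with the length and GC correction. With the replicate number as a block, 718 genes were higher and 626 lower, and Hbb-bt (-2.78, adjusted p = 0.027) and Bpgm (-0.65, adjusted p = 0.041) passed. Deviations of same-numbered libraries from their group means had correlations from -0.33 to 0.27. In this measure 0 hyperoxic libraries correlated best with their own number. The labels do not say whether same-numbered samples were paired, and so few noisy values cannot decide it. The causes of these changes were not tested. Few counts limit Slc4a1 and Hba-a1, which were fitted only without the filter, and Alas2, which had as few as 1 count.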

Other observations

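Markers of lung cell types were read in the same libraries. Of 6 alveolar type 2 genes 4 fell, against 10.8% of all genes, with a median log2 fold change of -1.71, and their summed level was 12670 to 23400 CPM in normoxia and 3351 to 7291 CPM in hyperoxia. The highest hyperoxic value was that of hyperoxia 2. Of 2 club cell genes 1 fell, and hyperoxia 2 again had the highest summed level of its group. It had 9750 CPM, against a lowest of 168 CPM in hyperoxia 1 and a normoxic range of 14040 to 51990 CPM. Of 4 endothelial genes 1 fell, and of 4 fibroblast genes 1 rose. Of 4 alveolar type 1 genes Rtkn2 fell, with a log2 fold change of -0.95 (adjusted p = 0.0246, edgeR), and without hyperoxia 2 it was -0.89 (adjusted p = 0.0580). Of 6 erythroblast markers only Tfrc was tested, with a log2 fold change of -0.11 (adjusted p = 0.751, edgeR).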
